A study of Mus musculus with 11 samples.

Results

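Mitochondrial ribosomal protein genes are the nuclear genes with Mrpl and Mrps symbols, most of which encode the proteins of the ribosome inside mitochondria. They were chosen by symbol alone: every identifier that starts with Mrpl or Mrps and a digit, without a pseudogene mark, and that was above 0 in at least 1 library. This gave 77 of the 23071 identifiers in the deposited table, 48 with Mrpl and 29 with Mrps symbols. RNA was measured by sequencing in 11 libraries from C57BL/6 mice whose ages the labels do not give. The 5 leukemia libraries were lymph node cells of single leukemic mice of genotype Pax5+/- x Ebf1+/-, flash frozen as suspensions. The 3 Ebf1 heterozygous (Ebf1+/-) libraries were column-purified progenitor B cells from the bone marrow of pools of 3, 6 and 7 mice. The 3 wild-type libraries were the same cell fraction from pools of 3, 7 and 6 mice. Pax5 and Ebf1 are transcription factors of the B lineage, and the labels name no leukemia without both heterozygous mutations. Tissue, purification and disease therefore cannot be told apart from genotype in any comparison with leukemia, and in these bulk samples fewer cells of a type and less RNA per cell cannot be told apart.

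The mitochondrial ribosome translates the few messenger RNAs of the mitochondrial genome, which encode core subunits of the respiratory chain and the ATP synthase. Its ribosomal RNAs are made in the organelle, while all its proteins are made in the cytoplasm from nuclear genes and imported. About the bacterial core of the particle lie further proteins that bacteria lack. By the known structure, 50 members belong to the large subunit, which joins amino acids and holds the exit tunnel, and 26 belong to the small subunit, which binds and decodes the messenger RNA. Of the large-subunit members 30 have a bacterial counterpart and 20 are specific to mitochondria, and of the small-subunit members 17 and 9 are of these kinds. Mrps18b, a relative of bacterial S18, is counted here with the bacterial counterparts, although ribosome structures name its protein among those specific to mitochondria. The symbols Mrps30 and Mrps18a are counted with the large subunit, where their proteins lie, and among its members specific to mitochondria, although Mrps18a is a relative of Mrps18b. The remaining member, Mrps36, encodes a component of the 2-oxoglutarate dehydrogenase complex of the citric acid cycle.

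Promoter windows are shown for the 3 members with the largest called difference between leukemia and wild type, which were Mrps6, Mrps18a and Mrpl23, and for Mrpl35, whose difference was closest to 0. Each runs from 250 bases before to 50 bases after the gene start of RefSeq (GRCm38.p6), 5′ to 3′ on the gene's strand. The windows lie at chr16:92058086-92058385 on the plus strand for Mrps6, chr17:46110754-46111053 on the plus strand for Mrps18a, chr7:142532782-142533081 on the plus strand for Mrpl23 and chr6:71823735-71824034 on the minus strand for Mrpl35. Capitals mark the ETS and GABP core CCGGAAG or the YY1 core AAGATGGC.
Mrps6: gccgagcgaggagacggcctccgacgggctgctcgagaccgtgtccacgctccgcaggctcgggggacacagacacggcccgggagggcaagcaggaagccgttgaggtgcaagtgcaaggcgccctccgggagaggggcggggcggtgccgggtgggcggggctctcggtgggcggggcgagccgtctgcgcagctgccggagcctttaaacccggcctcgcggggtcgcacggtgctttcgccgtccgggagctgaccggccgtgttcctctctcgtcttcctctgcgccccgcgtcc
Mrps18a: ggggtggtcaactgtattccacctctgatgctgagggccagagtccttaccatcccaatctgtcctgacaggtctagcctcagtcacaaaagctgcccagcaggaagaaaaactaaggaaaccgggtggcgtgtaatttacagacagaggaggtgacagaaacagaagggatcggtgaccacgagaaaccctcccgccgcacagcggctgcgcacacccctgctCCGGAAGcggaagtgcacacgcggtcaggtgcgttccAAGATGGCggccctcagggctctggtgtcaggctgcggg
Mrpl23: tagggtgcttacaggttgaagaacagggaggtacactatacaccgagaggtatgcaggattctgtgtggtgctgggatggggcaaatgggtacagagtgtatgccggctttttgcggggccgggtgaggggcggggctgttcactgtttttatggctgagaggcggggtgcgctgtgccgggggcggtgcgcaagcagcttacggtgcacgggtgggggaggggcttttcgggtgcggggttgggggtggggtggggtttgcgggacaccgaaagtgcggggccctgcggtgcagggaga
Mrpl35: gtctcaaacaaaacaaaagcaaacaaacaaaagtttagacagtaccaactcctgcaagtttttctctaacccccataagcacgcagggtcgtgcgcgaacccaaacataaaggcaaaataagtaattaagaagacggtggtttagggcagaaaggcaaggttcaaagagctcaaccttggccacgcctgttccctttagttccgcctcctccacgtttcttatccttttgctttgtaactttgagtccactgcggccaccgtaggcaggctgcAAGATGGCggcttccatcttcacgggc
Both cores stood in the Mrps18a window, at positions 225 and 262 counted from its 5′ end, and a YY1 core stood in the Mrpl35 window at position 274. The letters of the 4 motifs searched are not in the Mrps6 and Mrpl23 windows, which says nothing about other stretches near these genes. The windows follow RefSeq, and the annotations differ on where a gene starts. In GENCODE M21 the gene start of Mrpl23 lies 346 bases upstream of the RefSeq start and that of Mrpl35 lies 3185 bases upstream, both outside the windows shown, while a protein-coding transcript starts 20 and 26 bases from the RefSeq start of these genes. The GENCODE starts of Mrps6 and Mrps18a lie 66 and 18 bases from those of RefSeq, within the windows.

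Of the 77 members, 68 had a window in the RefSeq table, and 4 motifs were searched on both strands. CCGGAAG, the core bound by ETS factors and GABP, was found in 35.3% of these windows, 19.8% of the windows of 8616 expressed genes and 9.12% of all 27025 windows. The YY1 core AAGATGGC was found in 17.6% of member windows, 5.16% of expressed and 2.88% of all windows. The NRF1 core GCATGCGC was found in 11.8% of member windows, 5.81% of expressed and 2.80% of all windows. The E-box CACGTG, which Myc and its partners can bind, was found in 7.35% of member windows, against 10.7% of expressed and 7.24% of all windows. Thus 36 members held at least 1 of the first 3 motifs and 30 held none of the 4. Members with and without each motif had median log2 fold changes, leukemia over wild type, of 0.10 and 0.24 for the ETS core, 0.08 and 0.23 for the YY1 core, 0.24 and 0.23 for the NRF1 core and 0.33 and 0.23 for the E-box. The windows had a median GC content of 58.2%, against 60.7% for expressed genes, and 3 held TATAAA. A match of letters is a description of the window and was not tested as a binding site.

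Library totals, recovered from the values as whole reads, ran from 8.51 to 15.31 in units of 1e6 reads, so the members rested on 93 to 2096 reads per gene and library. Levels are FPKM, fragments per kilobase of transcript scaled to the library total, as the authors deposited them. Pax5 ranged from 71.4 to 162 FPKM in leukemia, 89.0 to 254 in Ebf1 heterozygous and 175 to 312 in wild-type libraries, and Ebf1 from 54.3 to 81.4, 43.4 to 86.5 and 83.4 to 112 FPKM in these groups. The 11 B progenitor markers were all detected, with summed levels of 3714 to 5152 FPKM in leukemia, 1829 to 5326 in Ebf1 heterozygous and 2419 to 4097 in wild type. Of these 11, 3 rose and 2 fell in leukemia against wild type, and 1 rose and 0 fell against Ebf1 heterozygous. Markers of other cells differed between the groups, not all in the same direction. The 13 granulocyte markers summed to 3.86 to 8.69 FPKM in leukemia, with Cebpe at 0 in every leukemia library, against 2713 to 10637 in Ebf1 heterozygous and 628 to 3393 in wild type, and all 13 fell in leukemia against each. Of 12 erythroid markers 8 were above 0 in some library, and they summed to 57.1 to 148 FPKM in leukemia, 501 to 1250 in Ebf1 heterozygous and 239 to 1254 in wild type. Of these 8, 7 fell in leukemia against wild type and 8 against Ebf1 heterozygous, and the globin genes Hba-a1, Hba-a2, Hbb-bs and Hbb-bt and the carbonic anhydrase gene Car1 were listed at 0 in every leukemia library. T cell markers summed higher in leukemia, with 57.9 to 111 FPKM, 34.9 to 56.0 in Ebf1 heterozygous and 27.2 to 38.9 in wild type. Of 7 tested against wild type, 1 rose and 0 fell, and of 8 against Ebf1 heterozygous, 1 rose and 3 fell. Monocyte markers summed to 53.7 to 148 FPKM in leukemia, 397 to 1688 in Ebf1 heterozygous and 324 to 542 in wild type. Against wild type, 0 of 3 tested monocyte markers rose and 1 fell, and 1 of 4 tested NK cell markers rose and 1 fell. Against Ebf1 heterozygous, 0 of 3 monocyte markers rose and 1 fell, and 0 of 6 NK cell markers rose and 3 fell. Of 2 tested markers of lymph node stroma and endothelium, 2 fell against each group. The part of these cells in the members' levels was not tested.

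All 77 members were expressed above 1 FPKM on average, and all passed the filter of every comparison. Mean levels spanned 8.45 FPKM for Mrpl1 to 149 FPKM for Mrpl12 in leukemia, 6.25 FPKM for Mrpl1 to 118 FPKM for Mrps21 in Ebf1 heterozygous cells, and 5.25 FPKM for Mrpl1 to 109 FPKM for Mrps21 in wild type. Transcript levels of the highest and the lowest member thus differed 17.6, 18.9 and 20.7 times in these groups. The median transcript length of the members was 1053 bases (407 to 6712), against 2812 bases for all genes tested in leukemia against wild type. Their median coefficient of variation between libraries was 9.21% in leukemia, 20.9% in Ebf1 heterozygous cells and 8.71% in wild type, against 15.1%, 23.5% and 14.3% for 11173 genes. Those genes are all that averaged at least 1 FPKM, while the lowest member, Mrpl1, averaged 6.98 FPKM over the 11 libraries. Levels were not matched, so these percentages do not show that the members vary less than other genes of their level. In the members' levels, Ebf1 heterozygous replicate 1 stood apart from the other libraries. Over the 77 members together the summed level was 4164, 2872 and 2918 FPKM in Ebf1 heterozygous replicates 1 to 3, and replicate 1 was the highest of the 11 libraries for 35 members.

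**Figure D1:**
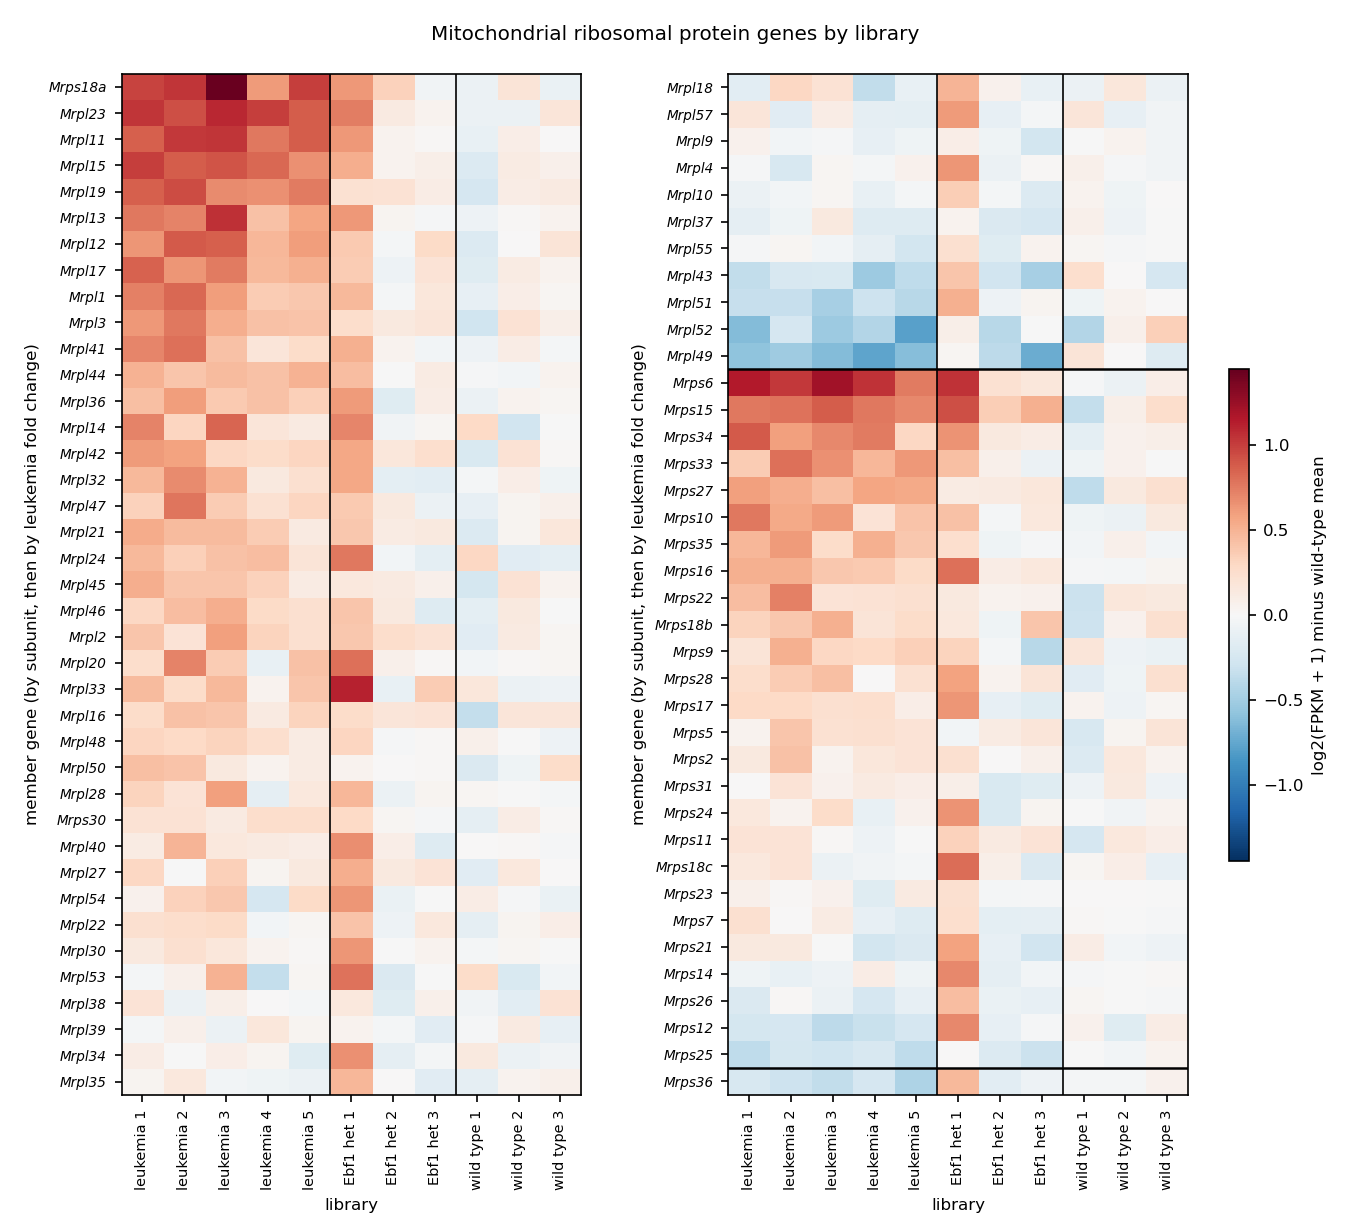
Level of each of the 77 members in each of the 11 libraries as log2(FPKM + 1) minus the wild-type mean of that gene (colour scale), in leukemia, Ebf1 heterozygous and wild-type columns. Rows run by subunit (large, then small, then Mrps36) and by the leukemia fold change, and the column of Ebf1 heterozygous replicate 1 is above all wild-type libraries for 64 members.

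Leukemia was compared with wild type to ask which genes differ between the leukemic cells and normal progenitors. Of the 77 members, 32 rose, 7 fell and 38 did not pass the test (limma on log2(FPKM + 1), two-sided, Benjamini-Hochberg adjusted p under 0.05 over 10968 genes). Over all genes tested, 20.7% were called higher and 24.1% lower. The members' median log2 fold change was 0.23 (range -0.62 to 1.04), against -0.04 for all genes, and 60 of 77 were above 0. On the deposited scale only Mrps6 and Mrps18a were called with at least a 2-fold change, so most differences were small. With libraries scaled to equal FPKM sums, their log2 fold changes were 0.85 and 0.82, both under 2-fold. Leukemia and wild-type libraries did not overlap for 32 members that were higher and 5 that were lower in leukemia, where 21.2% and 25.1% of all genes did not overlap in these directions. Without leukemia replicate 1, 3 or 4, or without wild-type replicate 3, 4 members were called lower, where 2086 to 2590 of all genes were lower.

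The large subunit had 22 members higher and 4 lower of 50, with a median log2 fold change of 0.28, and the small subunit had 10 higher and 2 lower of 26, with a median of 0.23. Of all 10968 genes, 20.7% were called higher and 24.1% lower. Among large-subunit members with a bacterial counterpart, 16 of 30 rose and 0 fell (median 0.36). At an unadjusted limma p under 0.05, 17 of these were higher and 0 lower, where 2697 of all genes were higher and 3063 lower. Among large-subunit members specific to mitochondria, 6 of 20 rose and 4 fell (median 0.18). The corresponding small-subunit counts were 6 higher and 1 lower of 17 with a bacterial counterpart (median 0.22) and 4 higher and 1 lower of 9 specific to mitochondria (median 0.36). With Mrps18b moved to the second of these, the counts were 6 and 1 of 16 (median 0.21) and 4 and 1 of 10 (median 0.35). When libraries were scaled to equal FPKM sums, the large subunit had 10 higher and 8 lower and the small subunit 4 and 3. All 10968 genes had 1471 higher and 3804 lower with that scaling. On that scale the large-subunit members with a bacterial counterpart had 8 higher and 3 lower, those specific to mitochondria 2 and 5 (median -0.02), and the corresponding small-subunit members 2 and 1, and 2 and 2. The difference between these classes was not tested.

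Mrps6 encodes the small-subunit protein that corresponds to bacterial S6. It had 25.5, 23.3, 26.8, 23.7 and 19.1 FPKM in the leukemia libraries, 23.7, 12.9 and 12.3 FPKM in Ebf1 heterozygous and 10.8, 10.3 and 11.8 FPKM in wild-type libraries. Every leukemia library was above every wild-type one, and Ebf1 heterozygous replicate 1 stood at the leukemia level. The log2 fold change over wild type was 1.04 ± 0.12 (SE, limma adjusted p = 0.00022). Exons of Mrps6 share 305 bases with Gm49711 on the same strand (GENCODE M21), so its reads are uncertain to that extent.

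Mrps18a is 1 of 3 mammalian relatives of bacterial S18, and its protein lies in the large subunit. It had 70.6, 73.2, 97.3, 54.6 and 71.9 FPKM in leukemia, 55.3, 44.7 and 34.1 FPKM in Ebf1 heterozygous and 33.2, 40.2 and 33.0 FPKM in wild-type libraries. The leukemia libraries lay above all wild-type ones, with replicate 3 the highest, and overlapped Ebf1 heterozygous replicate 1 (log2 fold change over wild type 1.01 ± 0.17, adjusted p = 0.00142). Its relatives, both in the small subunit, did not pass the test. Mrps18b averaged 25.9 ± 2.37 FPKM in leukemia and 20.5 ± 3.87 in wild type (SD, n = 5 and 3; log2 fold change 0.33 ± 0.13, limma adjusted p = 0.0669). Mrps18c averaged 60.9 ± 5.60 and 59.3 ± 4.56 FPKM in these groups (0.04 ± 0.10, limma adjusted p = 0.794, and -0.16 at equal FPKM sums). Whether the paralogs differ from each other in their change was not tested.

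Mrpl23, whose protein lies beside the exit of the tunnel for the new chain, had 105, 98.1, 110, 103 and 94.1 FPKM in leukemia, 85.9, 55.9 and 52.6 FPKM in Ebf1 heterozygous and 48.0, 47.8 and 57.4 FPKM in wild-type libraries. All leukemia values were above all others, and the log2 fold change over wild type was 0.99 ± 0.09 (adjusted p = 9.72e-05, the smallest of the members). Mrpl11 belongs to the stalk base, where translation factors dock. It had 20.6, 23.2, 23.4, 19.2 and 20.9 FPKM in leukemia, 17.4, 11.4 and 10.998 FPKM in Ebf1 heterozygous and 10.1, 11.7 and 10.9 FPKM in wild type. These groups were separate too, with leukemia above both (0.91 ± 0.10, adjusted p = 0.000178). Mrpl12, the stalk protein that contacts translation factors and also binds the mitochondrial RNA polymerase, was the most abundant member in leukemia. It had 142, 169, 167, 127 and 139 FPKM in leukemia, 119, 88.7 and 111 FPKM in Ebf1 heterozygous and 79.1, 91.4 and 103 FPKM in wild-type libraries (0.70 ± 0.13 over wild type, adjusted p = 0.0025).

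The other members of largest rise encode counterparts of bacterial proteins. Mrpl15 averaged 21.9 ± 1.96 FPKM in leukemia and 11.7 ± 1.49 in wild type (SD, n = 5 and 3; log2 fold change 0.86 ± 0.11, limma adjusted p = 0.000476). Mrpl19 averaged 16.4 ± 1.49 and 9.18 ± 1.41 FPKM in these groups (0.78 ± 0.12, adjusted p = 0.00103). Its exons share 1962 bases with Gcfc2 on the opposite strand, so its reads are uncertain to that extent. Mrpl13 averaged 98.4 ± 16.7 FPKM in leukemia and 59.2 ± 2.57 in wild type (0.71 ± 0.13, adjusted p = 0.00295). Mrps15, of the small subunit, averaged 55.6 ± 2.64 FPKM in leukemia, 49.8 ± 11.03 in Ebf1 heterozygous and 32.5 ± 6.81 in wild type (0.78 ± 0.13 over wild type, adjusted p = 0.00158). Mrpl1, of the stalk near the exit site of transfer RNA, was the member of lowest level in every group, with 8.45 ± 1.35 FPKM in leukemia and 5.25 ± 0.47 in wild type (0.59 ± 0.14, adjusted p = 0.00829). Mrpl17, another member of low level, averaged 9.24 ± 1.15 and 5.53 ± 0.67 FPKM in these groups (0.65 ± 0.13, adjusted p = 0.00348). Other abundant members did not pass the test: Mrpl30 had a log2 fold change of 0.12 (-0.08 at equal FPKM sums), Mrpl18 of -0.02 and Mrps21 of -0.04. Mrpl35, of low level, averaged 8.87 ± 0.66 FPKM in leukemia and 8.86 ± 0.73 FPKM in wild type.

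**Figure D2:**
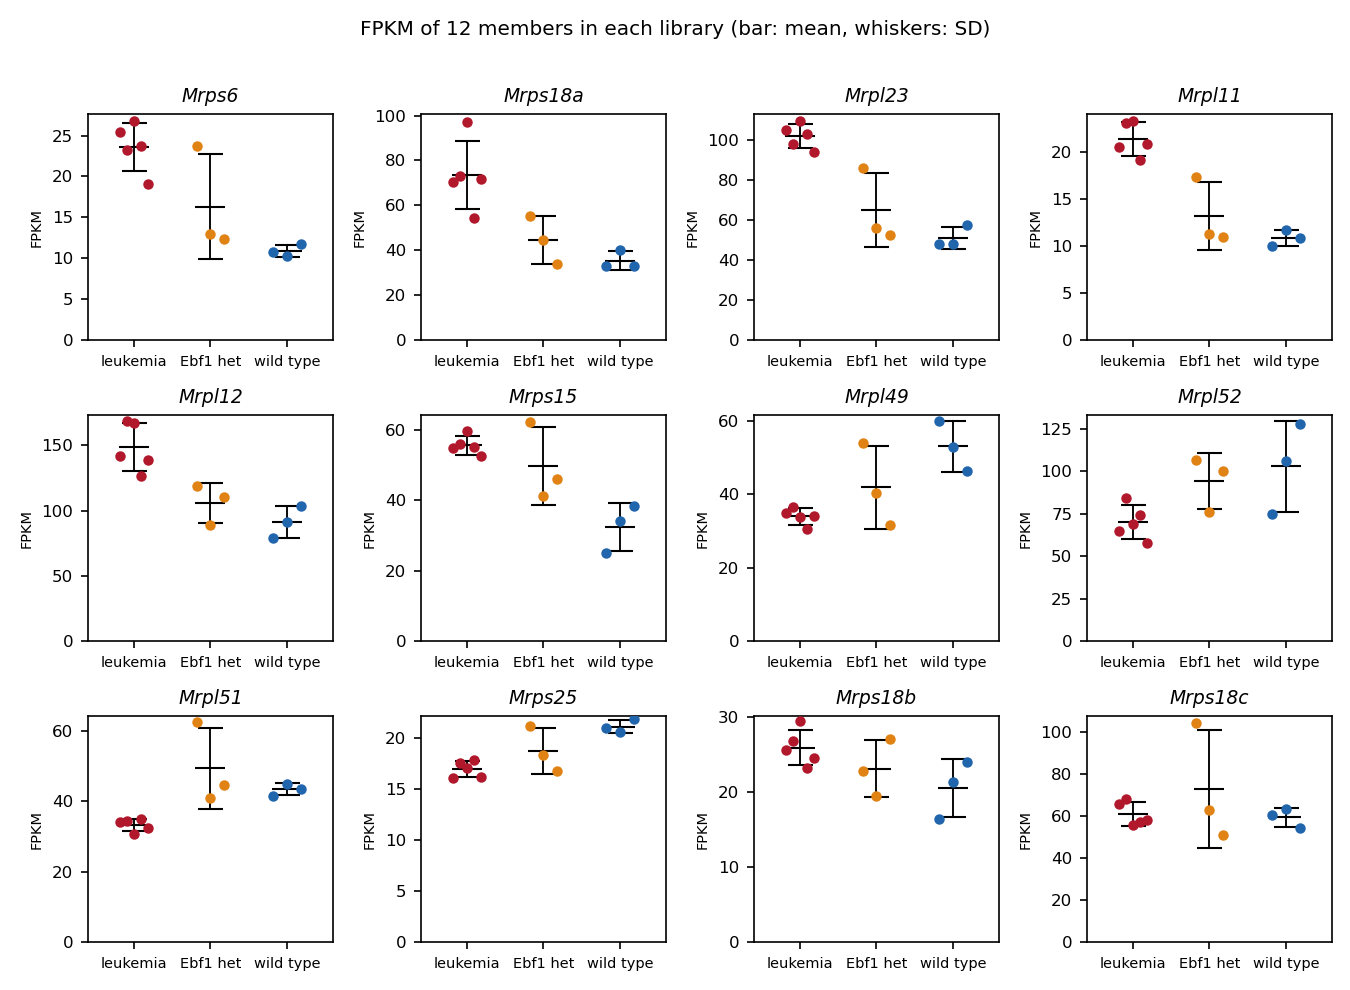
FPKM of 12 members in each library (points), with the mean (bar) and SD (whiskers) of the leukemia, Ebf1 heterozygous and wild-type groups. For Mrps6, Mrpl23 and Mrpl11 all leukemia points lie above all wild-type points, for Mrpl49 and Mrps25 all lie below them, and Mrps18c overlaps between all groups.

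The 7 members that fell were Mrpl49, Mrpl52, Mrpl51, Mrpl43, Mrps36, Mrps25 and Mrps12. Mrpl49 had 34.9, 36.6, 33.9, 30.5 and 34.0 FPKM in leukemia, 53.8, 40.2 and 31.5 FPKM in Ebf1 heterozygous and 59.99, 52.8 and 46.2 FPKM in wild-type libraries. The leukemia libraries were all below the wild-type ones, while the Ebf1 heterozygous libraries reached over both (log2 fold change over wild type -0.62 ± 0.10, adjusted p = 0.00158). Mrpl51 had 34.1, 34.3, 30.8, 34.9 and 32.5 FPKM in leukemia, 62.4, 41.0 and 44.7 FPKM in Ebf1 heterozygous and 41.6, 45.0 and 43.4 FPKM in wild-type libraries. Its leukemia values lay below all others (-0.37 ± 0.08, adjusted p = 0.00545). Both encode large-subunit proteins specific to mitochondria, as do Mrpl52 and Mrpl43.

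Mrpl52 averaged 70.1 ± 10.1 FPKM in leukemia and 103 ± 26.5 in wild type (SD, n = 5 and 3), but wild-type replicate 1, with 74.8 FPKM, lay within the leukemia range of 57.8 to 84.5. Its limma adjusted p was 0.0394, and 0.0526 to 0.154 when leukemia replicate 1, 3, 4 or 5 or wild-type replicate 2 or 3 was left out. Mrpl43 averaged 45.3 ± 3.88 FPKM in leukemia and 58.1 ± 10.05 in wild type, with overlap as well. Its adjusted p was 0.0488, and 0.0554 to 0.176 when any 1 library other than wild-type replicate 3 was left out. Mrps25, a small-subunit protein specific to mitochondria, averaged 17.0 ± 0.80 FPKM in leukemia and 21.1 ± 0.65 in wild type (-0.30 ± 0.08, adjusted p = 0.0147, and up to 0.0993 over the alternative fits). Its exons share 4590 bases with Nr2c2 on the opposite strand, so its reads are uncertain to that extent. Mrps12, which lies at the decoding centre, averaged 29.7 ± 1.27 and 36.6 ± 3.86 FPKM in these groups (-0.29 ± 0.09, adjusted p = 0.0307). Its adjusted p was 0.0504 to 0.11 when leukemia replicate 1, 3 or 4 or wild-type replicate 1 or 3 was left out. Mrps36, of the 2-oxoglutarate dehydrogenase complex, averaged 29.3 ± 1.82 FPKM in leukemia and 36.5 ± 1.32 in wild type (-0.31 ± 0.08, adjusted p = 0.0148). Its limma adjusted p was 0.0519 without wild-type replicate 3, 0.0948 with all groups in 1 fit and up to 0.105 over the alternative fits.

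**Figure D3:**
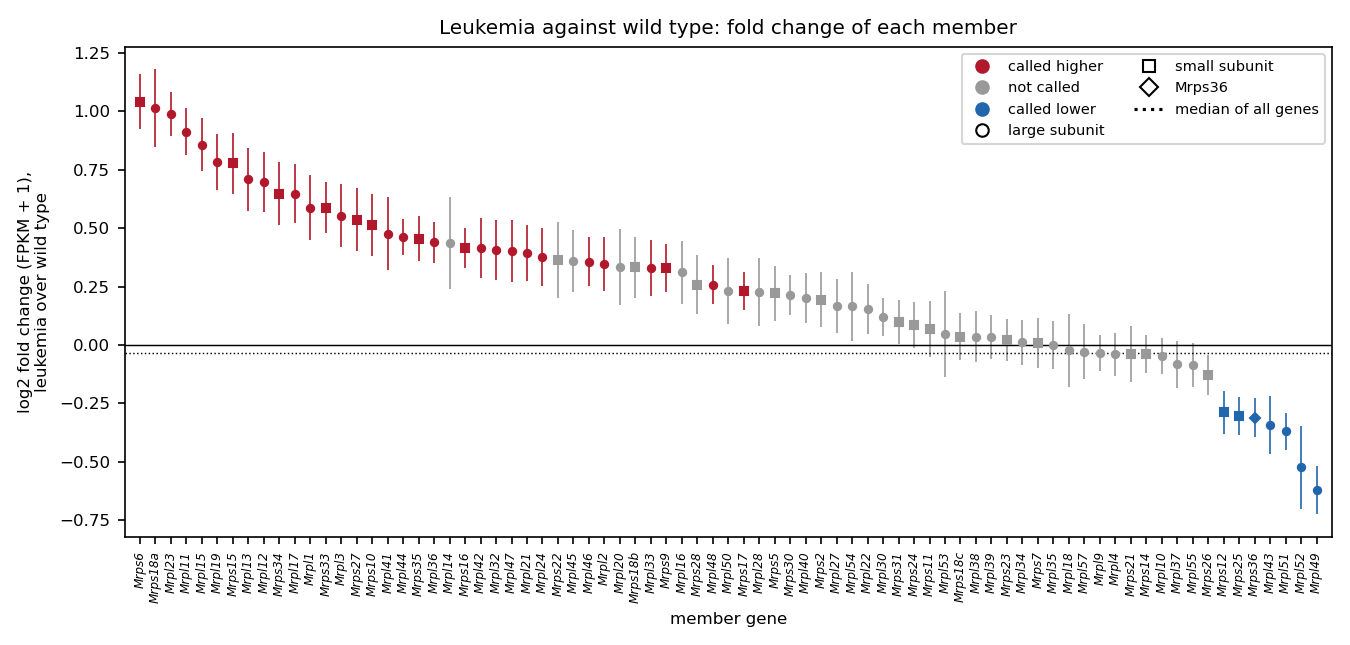
Log2 fold change of each member, leukemia over wild type, on the log2(FPKM + 1) scale with its standard error (whiskers). Red points were called higher (32), blue lower (7) and grey not called (38), shapes give the subunit, and the dotted line is the median of all genes at -0.04.

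The scale of the libraries bore on how many members were higher. FPKM divides by reads, so the FPKM of all genes need not sum to the same total: the sums were 478442 to 532514 in leukemia, 440766 to 546590 in Ebf1 heterozygous and 423117 to 443560 in wild-type libraries. On the deposited scale the members summed to 3553, 3676, 3669, 3170 and 3255 FPKM in leukemia and 2857, 2965 and 2974 FPKM in wild type, so the groups did not overlap. As a percentage of all FPKM the members took 0.667, 0.735, 0.714, 0.656 and 0.680 in leukemia, 0.762, 0.651 and 0.662 in Ebf1 heterozygous and 0.644, 0.674 and 0.703 in wild type, and here the groups overlapped. With the libraries scaled to equal FPKM sums, 14 members were called higher and 12 lower in leukemia against wild type, with a median log2 fold change of 0.04, and the median of all genes lay at -0.22. The members stood 0.25 above all genes on that scale and 0.27 above on the deposited one. All 14 members called higher at equal sums were among the 32, all 7 lower members were called again, and 0 changed direction. Equal sums multiply each library by 1 factor, which shifts all its genes together. The distance to all genes and this overlap of calls are thus largely fixed by the step and carry no separate support. The 14 comprised Mrps6, Mrps18a, Mrpl23, Mrpl11, Mrpl15, Mrpl19, Mrps15, Mrpl13, Mrpl12, Mrpl17, Mrps34, Mrps33, Mrpl1 and Mrpl44. Cytoplasmic ribosomal proteins took 23.2% to 30.9% of all FPKM in leukemia, 16.8% to 22.3% in Ebf1 heterozygous and 16.5% to 17.1% in wild-type libraries, and their part in the shift between the scales was not tested.

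**Figure D4:**
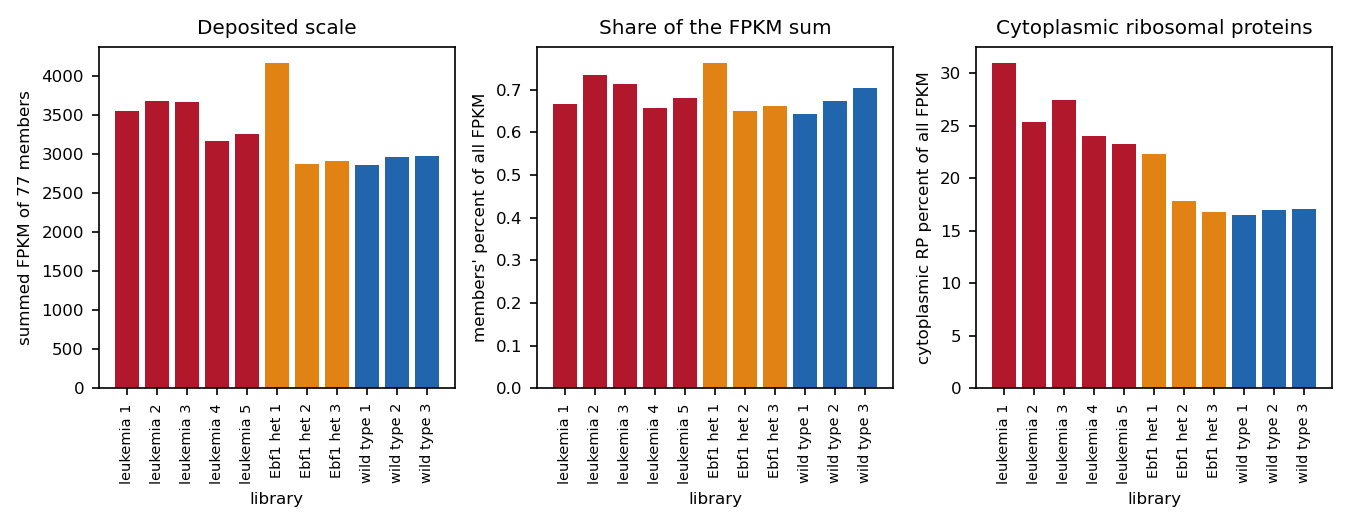
Bars show, for each library, the summed FPKM of the 77 members (left), that sum as a percentage of all FPKM (middle) and the percentage of all FPKM in cytoplasmic ribosomal protein (RP) genes (right). Leukemia (red) lies above wild type (blue) on the left and right but overlaps it in the middle, and Ebf1 heterozygous (orange) replicate 1 has the highest member level on the left, at 4164 FPKM.

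Ebf1 heterozygous cells were compared with wild type to ask what loss of 1 Ebf1 copy changes without leukemia. No member passed the test: 0 of 77 were called by limma and 0 by voom on recovered reads, and limma called 0% of all 11167 genes. The values printed here do not use the pairing of replicate numbers, and limma with a replicate block called 0 members too. At an unadjusted p under 0.05, 1 member was higher and 0 were lower, where 4.19% and 3.54% of all genes were higher and lower. That member was Mrps15, with 62.2, 41.2 and 46.1 FPKM in Ebf1 heterozygous and 25.0, 34.1 and 38.3 FPKM in wild-type libraries. These groups did not overlap (log2 fold change 0.60 ± 0.22, adjusted p = 0.59). Mrps6, Mrpl2 and Mrpl42 had the next smallest p-values. Mrpl2, a protein of the peptidyl transferase centre, had 66.9, 60.8 and 58.9 FPKM in Ebf1 heterozygous and 45.2, 55.6 and 51.8 FPKM in wild-type libraries (0.29 ± 0.14, adjusted p = 0.7). Mrpl42 had 97.6, 74.2 and 77.9 FPKM in Ebf1 heterozygous and 56.3, 76.2 and 66.5 FPKM in wild-type libraries, with overlap (0.32 ± 0.18, adjusted p = 0.719).

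The members leaned upward as a group, and this came with 1 library. The median log2 fold change was 0.17, Ebf1 heterozygous over wild type (range -0.36 to 0.60), against 0.03 for all genes, with 67 of 77 above 0. Without Ebf1 heterozygous replicate 1 the median was -0.01 and 38 of 77 were above 0. Replicate 1 exceeded every wild-type library for 64 members and was below all of them for 0. Replicate 2 exceeded every wild-type library for 12 members and was below all for 26, and replicate 3 for 21 and 23. Mrpl33 gave an extreme case, with 134 FPKM in replicate 1, 57.0 and 79.8 FPKM in replicates 2 and 3, and 69.1, 58.1 and 58.3 FPKM in wild type. Replicate 3 differed in other measures: it had the lowest summed B progenitor markers of the 11 libraries (1829 FPKM), and its correlations with the leukemia libraries across genes were 0.793 to 0.809, against 0.842 to 0.871 for replicate 1. Replicate 1 also had the highest summed granulocyte markers (10637 FPKM), the highest FPKM sum and the largest library total, and the part of these in its member levels was not tested. Across the 77 members, Spearman's correlation of transcript length with the log2 fold change was -0.43, and over all 11167 genes -0.38, so that shorter transcripts had higher ratios (a description, since genes share their libraries).

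Leukemia was set against Ebf1 heterozygous cells to ask what differs beyond 1 lost Ebf1 copy. Here 8 of 77 members rose and 1 fell, against 9.31% higher and 12.3% lower among 11161 genes. The groups did not overlap for 10 members that were higher and 3 that were lower, where 12.9% and 16.2% of all genes did not overlap. The share called higher was near that of all genes. The 8 were Mrps18a, Mrpl11, Mrpl23, Mrpl15, Mrpl19, Mrpl12, Mrps27 and Mrps35, with log2 fold changes of 0.40 to 0.71, leukemia over Ebf1 heterozygous. Mrpl19 had the smallest p, with 17.4, 18.5, 15.3, 15.0 and 15.98 FPKM in leukemia and 10.8, 10.7 and 9.93 FPKM in Ebf1 heterozygous libraries (0.60 ± 0.11, adjusted p = 0.00722). Leukemia was higher in every library for Mrpl15, with 24.3, 22.2, 22.6, 21.5 and 18.9 FPKM, against 17.2, 12.1 and 12.3 FPKM in Ebf1 heterozygous cells (0.64 ± 0.14, adjusted p = 0.0149). Mrpl11 had an adjusted p of 0.0175 (log2 fold change 0.68 ± 0.16) and Mrpl23 of 0.0183 (0.68 ± 0.16). Mrpl51 was the 1 member that fell (-0.53 ± 0.14, adjusted p = 0.0295).

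These counts also depended on Ebf1 heterozygous replicate 1 and on the scale. Without replicate 1, 21 members were called higher and 1 lower, without replicate 2 the counts were 2 and 2, and without replicate 3 they were 2 and 1. Of all genes tested, 1224 of 11091 were higher and 1416 lower without replicate 1. The all-gene counts were 732 and 1120 of 11148 without replicate 2, and 690 and 1007 of 10948 without replicate 3. Without leukemia replicate 1, 2, 3 or 5 the member counts were 4 to 5 higher and 0 lower, where all genes had 695 to 832 higher and 1049 to 1202 lower. The calls of Mrpl23, Mrpl11 and Mrpl15 were lost without Ebf1 heterozygous replicate 2 or 3 (limma adjusted p = 0.0526 to 0.0652). At equal FPKM sums 5 members were higher and 4 lower, against 718 higher and 1539 lower of all 11161 genes. Both comparisons with leukemia use the same leukemia libraries, and both with wild type the same wild-type libraries, so their values stand side by side and do not support each other. Mrpl23, for example, had log2 fold changes of 0.99 for leukemia over wild type, 0.31 for Ebf1 heterozygous over wild type and 0.68 for leukemia over Ebf1 heterozygous. Mrps15 had 0.78, 0.60 and 0.18 in the same order, and Mrps12 had -0.29, 0.19 and -0.48. No member had separate libraries in all 3 pairs of groups. Per the submitters' processing notes, other alignment tools are listed for the Ebf1 heterozygous samples than for the others, so tool and genotype cannot be told apart here.

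Many members share their start region with another gene. In GENCODE M21 (GRCm38) all 77 were found, on 17 chromosomes, with 10 on chromosome 11. A protein-coding gene starts within 1000 bases in the opposite direction for 33 of them (42.9%), against 17.7% of 10347 expressed genes. For 29 of these members the neighbour was found by its GENCODE symbol and tested as well, in leukemia against wild type. Twnk, the neighbour of Mrpl43, was not found by that symbol. Its older symbol Peo1 was not searched for here, so this pairing is not counted. The member alone was called in 12 of these pairings, the neighbour alone in 7, both in 3 and neither in 7, with Mrpl46 and Mrps11, which lie head to head with starts 412 bases apart, counted from each side. Of the 3 pairings with both called, 1 went the same way, as Mrpl51 and the condensin subunit gene Ncapd2, whose starts lie 100 bases apart, both fell (Ncapd2 log2 fold change -0.73, adjusted p = 0.00128). In the other 2, the member rose and the neighbour fell. Mrpl48 rose by a log2 fold change of 0.26 while Rab6a, a Golgi trafficking gene, had -0.80 (adjusted p = 0.00028), and Mrpl2 rose by 0.35 while Klc4, a kinesin light chain gene, had -0.61 (adjusted p = 0.0296). The adjusted p of Mrpl2 was 0.0353, and 0.0531 to 0.124 when leukemia replicate 1, 3 or 4 or wild-type replicate 1 or 3 was left out. At equal FPKM sums neither member was called, with 0.06 for Mrpl48 (adjusted p = 0.587) and 0.15 for Mrpl2 (adjusted p = 0.309), and Mrpl48 had an adjusted p of 0.0725 with all groups in 1 fit. Mrpl49 on chromosome 19 (6053622 to 6057785, minus strand) starts 59 bases from Fau, which encodes cytoplasmic ribosomal protein S30, and Fau did not pass the test (0.17, adjusted p = 0.489).

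Exon bases were shared with another protein-coding gene for 23 members, and since the strand setting of the counting is not given in the sources used here, such reads are uncertain. For 18 of these the other gene was found by its GENCODE symbol and tested too. Mrpl43, called lower, shares 507 bases with Twnk and is not among these 18, since the older symbol Peo1 was not searched for. Both genes were called the same way in 3 of these cases and opposite ways in 1, the member alone was called in 8, the other gene alone in 4 and neither in 2, with Mrpl46 and Mrps11 counted from each side. Mrps25 on chromosome 6 (92169525 to 92184033, minus strand) shares 4590 bases with Nr2c2 on the opposite strand, and both were called lower (Nr2c2 log2 fold change -0.45, adjusted p = 0.00215). Mrpl19 on chromosome 6 (81957851 to 81965958, minus strand) shares 1962 bases with Gcfc2 on the opposite strand, and both were called higher (Gcfc2 0.55, adjusted p = 0.015). The transcript lengths behind the FPKM of Mrps25 and Mrpl19 were 6065 and 5000 bases. Mrpl49 shares 91 bases with Syvn1, which was lower as well (-0.72, adjusted p = 0.0282). The case of opposite calls was Mrpl48, which shares 708 bases with Rab6a. Mrps34 was called higher (0.65) and shares 1309 bases with Mapk8ip3, which was not called (0.14), while Mrps24, not called (0.09), shares 226 bases on the same strand with Urgcp, which was lower (-1.09, adjusted p = 0.00535). Among the members of largest rise, Mrps18a (chromosome 17, 46110986 to 46128910), Mrpl23 (chromosome 7, 142532686 to 142540747) and Mrpl11 (chromosome 19, 4962147 to 4966999), all on the plus strand, share no exon bases with another protein-coding gene there.

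Other genes of mitochondrial translation were counted in leukemia against wild type, where 20.7% of all genes were called higher and 24.1% lower. At an unadjusted limma p under 0.05, 2697 of all 10968 genes were higher and 3063 lower. Of 6 mitoribosome subunits with other symbols, 3 rose and 0 fell (4 and 0 at an unadjusted p under 0.05). Chchd1, a small-subunit protein, averaged 102 ± 20.3 FPKM in leukemia and 56.9 ± 4.65 in wild type (0.80 ± 0.16, limma adjusted p = 0.00407), and Gadd45gip1, a large-subunit protein, averaged 45.0 ± 1.96 and 37.5 ± 1.85 FPKM in these groups (0.26 ± 0.08, adjusted p = 0.0255). Of 26 assembly factors 8 rose and 1 fell (30.8% and 3.85%). The 1 that fell, Mpv17l2, a large-subunit assembly factor, averaged 15.7 ± 2.22 FPKM in leukemia and 27.1 ± 4.90 in wild type (-0.75 ± 0.14, adjusted p = 0.00307). Rbfa, which matures the small-subunit RNA, rose (0.46 ± 0.09, adjusted p = 0.00435).

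Of 18 translation factors 6 rose and 0 fell (8 and 0 unadjusted), among them the initiation factor gene Mtif3 with 20.1 ± 2.08 FPKM in leukemia and 13.0 ± 0.94 in wild type (0.59 ± 0.11, limma adjusted p = 0.0023) and Gatb, of the enzyme that completes glutaminyl transfer RNA (0.65 ± 0.15, adjusted p = 0.00667). Of 17 mitochondrial tRNA synthetases 8 rose and 0 fell (9 and 0 unadjusted), with Pars2 and Nars2 at 0.66 each (adjusted p = 0.0077 and 0.0157). Unadjusted, 24.6% of all genes were higher. Of 13 transcription and DNA maintenance genes 4 were higher and 2 lower (30.8% and 15.4%, against 20.7% and 24.1% of all genes). Tefm, the mitochondrial transcription elongation factor, averaged 12.4 ± 2.42 FPKM in leukemia and 5.84 ± 1.37 in wild type (0.98 ± 0.18, adjusted p = 0.00234), and Polg, the mitochondrial DNA polymerase, fell, with 18.4 ± 1.66 and 29.4 ± 2.75 FPKM in these groups (-0.65 ± 0.10, adjusted p = 0.00121).

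Of 8 nuclear regulators 2 rose and 2 fell, 25% each, near the 20.7% and 24.1% of all genes. Myc averaged 156 ± 36.2 FPKM in leukemia and 42.7 ± 22.9 in wild type (1.99 ± 0.36, limma adjusted p = 0.00239), and Nrf1, the factor of the GCATGCGC core, averaged 14.5 ± 0.95 and 21.1 ± 1.72 FPKM in these groups (-0.52 ± 0.10, adjusted p = 0.00249). Of 77 nuclear genes of oxidative phosphorylation, 19 rose and 2 fell on the deposited scale (median 0.18), but 6 rose and 15 fell at equal FPKM sums (median -0.02), where all genes had 2267 higher and 2647 lower on the deposited scale (median -0.04) and 1471 and 3804 at equal sums (median -0.22). Ndufb2, of complex I, averaged 102 ± 9.42 FPKM in leukemia and 58.6 ± 5.83 in wild type (0.79 ± 0.10, adjusted p = 0.000449), while Cox6b2, a tissue-restricted complex IV isoform, was listed at 0 in 4 leukemia libraries and at 0.131 FPKM in the other, and averaged 23.4 ± 13.6 FPKM in wild type. Of 78 cytoplasmic ribosomal protein genes 72 rose and 2 fell (median 0.82), and after quantile scaling 35 were higher and 3 lower (median 0.25). With quantile scaling all genes had 2632 higher and 2385 lower. Rpl15 averaged 448 ± 59.97 FPKM in leukemia and 220 ± 23.1 in wild type (1.01 ± 0.13, adjusted p = 0.000385), and Rps4l, of the 2 that fell, was listed at 0 in 4 leukemia libraries and at 0.148 FPKM in the other, and averaged 9.62 ± 0.75 FPKM in wild type. At equal FPKM sums the assembly factors had 4 higher and 2 lower, the translation factors 2 and 1, the synthetases 1 and 0, and the cytoplasmic ribosomal proteins 66 and 2. On that scale the subunits with other symbols had 1 higher and 1 lower, the transcription and DNA maintenance genes 2 and 4 (median -0.11), and the nuclear regulators 1 and 3. No difference between these lists and the members was tested.

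**Figure D5:**
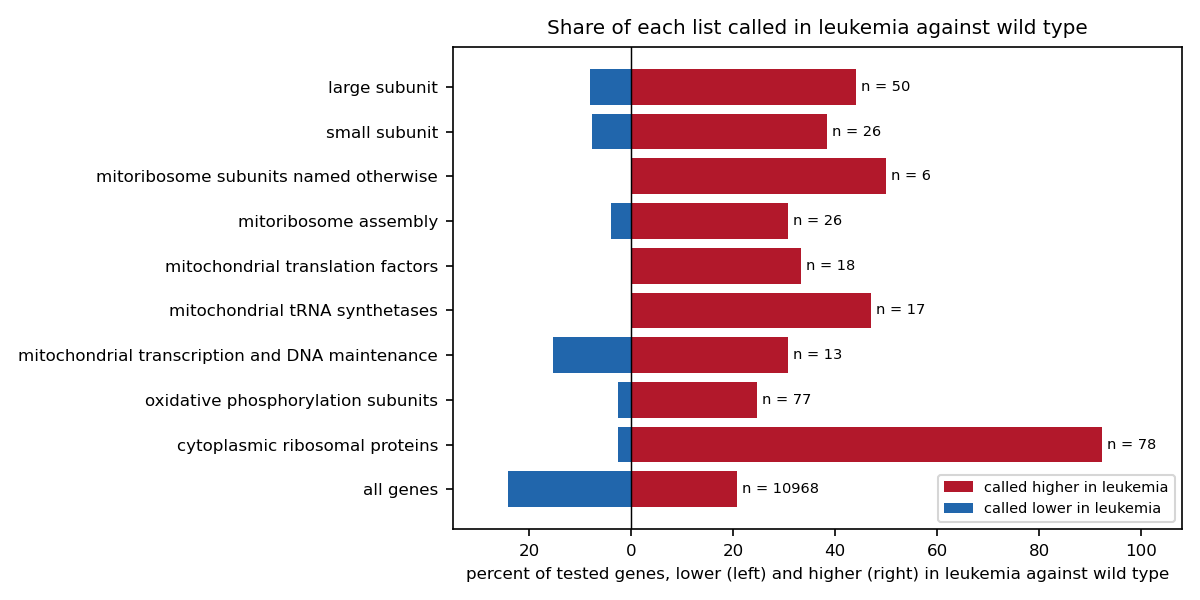
Percentage of the tested genes of each list called higher (red, right) and lower (blue, left) in leukemia against wild type by limma on the deposited scale, with the number tested as n. On this scale 22 of 50 large-subunit members, 10 of 26 small-subunit members and 72 of 78 cytoplasmic ribosomal protein genes are higher, against 20.7% of all genes. After quantile scaling these counts were 24, 11 and 35, where 2632 of all 10968 genes were higher. At equal FPKM sums they were 10, 4 and 66, where 1471 of all genes were higher.

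Across the 11 libraries the members varied together in part. The median Pearson correlation of a member with the mean of the others was 0.69, with 59 members over 0.5 and 4 under 0. Those 4 were Mrps25 (-0.26), Mrpl49 (-0.22), Mrpl52 (-0.18) and Mrpl51 (-0.07), all of them called lower in leukemia. Among 10462 genes outside the lists, the profiles most like the members' mean log2(FPKM + 1) were those of Sec61g, a subunit of the endoplasmic reticulum translocon (r = 0.96), Timm8b, a carrier of proteins between the mitochondrial membranes (0.96), Cebpzos (0.96) and Polr2d, an RNA polymerase II subunit (0.95). Sec61g had 106, 118, 114, 87.1 and 86.1 FPKM in leukemia, 131, 68.2 and 76.99 FPKM in Ebf1 heterozygous and 78.8, 74.7 and 74.8 FPKM in wild-type libraries, with its highest value, like the members' sum, in Ebf1 heterozygous replicate 1. These correlations describe libraries that fall into groups and share depth and composition, and carry no test.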

How the data were processed

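RNA was sequenced from 5 leukemia, 3 Ebf1 heterozygous and 3 wild-type samples. Levels came from a single FPKM table that the authors deposited. Per the submitters' processing notes, TopHat2 and Cufflinks are listed for the Ebf1 heterozygous samples and BWA 0.7.12 for the leukemia and wild-type samples, with build mm10 (GRCm38). The program that counted reads, its gene models and its use of strand were not given in the sources used here. Whole reads, within 0.001 read, were recovered for all 17380 genes above 0, with library totals of 8.51 to 15.31 in units of 1e6 reads. The table holds 0 genes of the mitochondrial genome. Without molecular identifiers, reads are not separate molecules.

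Tests used limma 3.58.1 (R 4.3.3) on log2(FPKM + 1), a scale that understates changes of low genes. A gene entered if it averaged 1 FPKM or more across the compared samples. Each fit held the 2 groups compared, with eBayes and a trend, and gave two-sided p-values that were Benjamini-Hochberg adjusted over all genes and called under 0.05. Each leukemia library is 1 mouse and each other library a pool. The labels do not say that replicates were prepared apart, so p-values measure the spread between these samples only. The steps were tested on simulated data. Figures were drawn with Matplotlib 3.10.9 in Python 3.11.15, and tables were made with pandas 2.3.3 and NumPy 2.4.6. Members and lists were chosen with earlier results of these data known. Named members are the 8 highest and up to 8 lowest called in leukemia against wild type, the 4 of highest and 4 of lowest level, the 4 of smallest p in each other comparison and the Mrps18 relatives, beside the 2 genes of smallest p per list. Mrpl33, Mrpl48, Mrps24, Mrps34, Mrps33, Mrpl44, Mrps27, Mrps35, Mrpl46, Mrps11 and the neighbouring genes were named after their values were seen.

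Whether replicate numbers pair samples was checked over genes, by the correlation of deviations from the group means. These were 0.65, 0.32 and 0.69 between Ebf1 heterozygous and wild-type samples of numbers 1, 2 and 3, so the numbers were taken to pair those samples. The fold changes, standard errors and p-values printed for that comparison come from the fit without this pairing. A replicate block, which uses it, was run as an alternative. No day or batch is given in the labels. Alternatives were a pseudocount of 0.1, no filter, a filter at 5 FPKM, quantile and median-ratio scaling, equal FPKM sums, all groups in 1 fit, a replicate block and each replicate left out. A voom fit of the recovered reads, and class and list counts under each scaling, with Mrps18b in either class, were chosen after seeing the data. The libraries all differed by more than sampling noise, the most alike being Ebf1 heterozygous replicate 2 and wild-type replicate 2, with a correlation of 0.989 across genes. Protein sequences were not used here.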

Additional observations from a re-analysis of the deposited data

How the results depend on the processing

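For leukemia against wild type, where 32 members were higher and 7 lower with a median log2 fold change of 0.23, equal FPKM sums gave 14 higher, 12 lower and a median of 0.0359, and quantile scaling gave a median of 0.29. All 10968 genes had 1471 higher and 3804 lower at equal sums. All groups in 1 fit gave 25 higher and 4 lower, where all genes had 1980 higher and 2178 lower. Leaving out each replicate in turn gave 22 to 31 higher and 4 to 6 lower, where all genes had 1746 to 2135 higher and 2048 to 2590 lower. The replicate block gave 27 higher, 1 lower and a median of 0.33, where all genes had 1658 higher and 2020 lower. Leukemia shares its replicate numbers with the other groups in name only. Its correlations were -0.05, 0.07 and -0.13 with wild type, and 0.03, 0.06 and -0.10 with Ebf1 heterozygous samples. For leukemia against Ebf1 heterozygous, where 8 were higher and 1 lower, equal FPKM sums gave 5 higher and 4 lower, and the replicate block gave 0 and 0. All genes had 718 higher and 1539 lower at equal sums, and 350 and 594 with the block. Leaving out each replicate in turn gave 2 to 21 higher and 0 to 2 lower, where all genes had 690 to 1224 higher and 1007 to 1416 lower. For Ebf1 heterozygous against wild type, 0 members were called under every alternative run, the replicate block included (median 0.17). The cause of these shifts was not tested. Of the named members that passed the test, 0 changed direction, while at equal FPKM sums Mrpl30, Mrps18c and Mrpl35, which did not pass it, had log2 fold changes of -0.08, -0.16 and -0.18, against 0.12, 0.04 and 0.00 on the deposited scale. In leukemia against wild type Mrpl43, called at an adjusted p of 0.0488, ranged between 0.00491 and 0.219 over the alternatives, Mrps12 between 0.00557 and 0.198, Mrpl52 between 0.00811 and 0.154, Mrpl2 between 0.0315 and 0.309 and Mrpl42 between 0.024 and 0.186. Mrps36 ranged between 0.00202 and 0.105, Mrps25 between 0.00333 and 0.0993 and Mrpl51 between 0.00134 and 0.0519. Mrps6, Mrps18a, Mrpl23, Mrpl11 and Mrpl15 stayed at or under 0.00883 in that comparison. Group sizes of 3 and 5 limit what could be detected.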

Other observations

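None of the 26 named members had a lone library among the 5 leukemias by Dixon's criterion at 95%, and 3 of all 77 did, where chance marks about 1 in 20 groups.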
